A study of Mus musculus with 18 samples.

Results

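The 9 genes described here encode enzymes of phosphatidylcholine and triglyceride synthesis: Chka, Pcyt1a, Chpt1, Cept1, Lpin1, Lpin2, Gpam, Dgat1 and Dgat2. They were chosen by name, as the probe sets that carry only that gene's symbol, and are 9 of 30142 genes measured with a probe set of their own. Each of the 9 had 1 such probe set. They were measured in lung epithelial cells of TCF/Lef:H2B/GFP mice aged 8 to 12 weeks, in which TCF/Lef sites, the DNA elements through which Wnt and beta-catenin act on transcription, drive a green fluorescent protein fused to histone H2B. A histone fusion can persist in a nucleus after its transcription has stopped, and the reporter is not restricted to a cell type. Lungs with trachea and bronchi were taken apart with dispase, cells carrying CD31 or CD45 were removed with magnetic beads, cells with EpCAM on their surface were kept, and living EpCAM positive cells were sorted by their fluorescence into Wnthigh, Wntlow and Wntnegative cells. All groups share the reporter strain, and Wntnegative cells are its cells with no detected fluorescence. The labels name the tissue distal lung. Each group has 6 arrays, each from 8 ng of total RNA of cells pooled from 3 to 4 animals, so single animals cannot be told apart.

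The arrays fall into a run of experiments 2 to 5 and a run of experiments 7 to 9, with 3 arrays of each group in each run. Wnthigh arrays came from experiments 2, 4, 5, 7, 8 and 9, and Wntlow and Wntnegative arrays from experiments 3, 4, 5, 7, 8 and 9. Array medians lay between 4.55 and 4.68 in the earlier run and between 3.50 and 3.65 in the later run on the deposited log2 scale. Levels of the 9 genes are therefore given within a run, and differences were fitted with a term for the run. Levels of other pathway genes are means over both runs, and ranges of median markers span both runs. Arrays of 1 group and run correlated at 0.978 to 0.995 across probe sets. The number of arrays, not a read depth, limits the precision. All markers of fibroblasts (4 of 4), adipocytes (4 of 4), leukocytes (4 of 4) and alveolar macrophages (3 of 3 measured) were below the 95th percentile of the background probe sets in every group and run. Of 4 endothelial markers, 3 were below it throughout, and Kdr was above it in Wnthigh and Wntlow arrays. Over both runs Kdr averaged 6.48 in Wnthigh, 10.58 in Wntlow and 4.57 in Wntnegative arrays.

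Phosphatidylcholine is made from choline, which is phosphorylated, activated to CDP-choline and joined to diacylglycerol. Diacylglycerol itself comes from glycerol phosphate, which is acylated to phosphatidate and then dephosphorylated, and a further acylation turns it into triglyceride, the stored fat of lipid droplets. In the lung this chemistry is best known from alveolar type II cells, which secrete surfactant rich in phosphatidylcholine. Chka encodes choline kinase alpha, and Pcyt1a the CTP:phosphocholine cytidyl-transferase that sets the pace of the choline branch. Chpt1 and Cept1 encode the enzymes that join CDP-choline to diacylglycerol, Cept1 also using CDP-ethanolamine. Gpam encodes the mitochondrial acyltransferase that starts glycerolipid synthesis. Lpin1 and Lpin2 encode lipins, phosphatidate phosphatases that make diacylglycerol. Dgat1 and Dgat2 encode unrelated enzymes that turn diacylglycerol into triglyceride.

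The promoters of the gene with the largest difference of the 9 (Gpam), of the pace-setting enzyme (Pcyt1a) and of the pair of genes for the same final step that differed in opposite directions (Cept1 and Chpt1) are shown here. Each runs 5′ to 3′ on the gene's own strand from 250 bases before an annotated start to 50 bases from it on, taken from RefSeq on GRCm38.p6. Capitals mark matches to the motifs searched on both strands.
Pcyt1a, chr16:32430671-32430970, plus strand: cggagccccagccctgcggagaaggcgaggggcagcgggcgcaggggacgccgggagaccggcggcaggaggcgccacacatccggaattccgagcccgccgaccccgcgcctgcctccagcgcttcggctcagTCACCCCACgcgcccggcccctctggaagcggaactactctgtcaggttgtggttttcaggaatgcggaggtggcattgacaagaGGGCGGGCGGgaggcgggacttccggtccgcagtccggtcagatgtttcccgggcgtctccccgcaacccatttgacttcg
Gpam, chr19:55127189-55127488, minus strand: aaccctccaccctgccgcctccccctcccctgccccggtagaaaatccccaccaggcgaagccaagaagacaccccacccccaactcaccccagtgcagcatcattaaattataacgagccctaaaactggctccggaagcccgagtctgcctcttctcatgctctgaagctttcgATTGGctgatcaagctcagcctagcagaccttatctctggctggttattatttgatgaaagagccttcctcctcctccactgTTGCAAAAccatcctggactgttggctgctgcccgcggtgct
Cept1, chr3:106547753-106548052, minus strand: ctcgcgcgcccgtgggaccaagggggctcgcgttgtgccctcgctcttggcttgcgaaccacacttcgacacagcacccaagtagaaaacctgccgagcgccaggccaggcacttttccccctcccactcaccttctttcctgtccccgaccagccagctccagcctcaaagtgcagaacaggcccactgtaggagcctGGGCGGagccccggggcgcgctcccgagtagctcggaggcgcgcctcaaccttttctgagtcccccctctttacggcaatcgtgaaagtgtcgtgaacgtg
Chpt1, chr10:88503921-88504220, minus strand: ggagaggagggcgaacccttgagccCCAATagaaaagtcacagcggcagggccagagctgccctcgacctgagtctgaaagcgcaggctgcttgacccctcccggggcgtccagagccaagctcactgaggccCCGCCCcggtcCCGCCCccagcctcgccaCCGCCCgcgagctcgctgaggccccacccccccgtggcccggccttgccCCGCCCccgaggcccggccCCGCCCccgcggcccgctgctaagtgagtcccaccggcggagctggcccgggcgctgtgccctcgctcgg
The motifs were a sterol regulatory element (TCACNCCAC), a CCAAT box (CCAAT), an E-box (CACGTG), a GC box (GGGCGG) and a C/EBP site (TTGCNNAA), where N is any base. No match of 1 motif overlapped a match of another in these windows, although GC boxes can overlap each other. RefSeq windows were at hand for 7 of the 9 genes, 14 windows in all, with Dgat1 and Dgat2 named only. The sterol regulatory element was in 2 of the 14 windows, both of Pcyt1a and overlapping each other, starting 116 bases before the start in the window printed, and 1.24% of 32851 mouse windows of the same length hold it. The Gpam window printed holds a CCAAT box, found in 5 of the 14 windows and in 37.4% of all windows, and a C/EBP site, found in 3 of the 14 and in 10.8% of all. GC boxes were in 9 of the 14 windows, with 5 boxes in the Chpt1 window and 1 in the Cept1 window printed, and 35.7% of all windows hold at least 1. A Cept1 window that overlaps the printed one held 3, and the remaining Cept1 window held 0. The 9 windows with GC boxes had 64.0% to 80.7% G and C, against a median of 52.7% over all windows. This composition was not accounted for in the shares. The E-box was in 1 of the 14 windows, of Lpin2, against 7.15% of all windows. Windows of 1 gene can overlap and are not independent. A match is a run of letters and no evidence of binding.

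Wnthigh and Wntnegative cells were compared to see how the pathway differs between cells with strong reporter signal and cells with none. Of the 9 genes 8 differed, 2 higher and 6 lower in Wnthigh cells. Gpam was lower by a log2 difference of −4.14, Chka by −2.05 and Lpin2 by −2.02, while Dgat2 was higher by 2.65 and Chpt1 by 0.58. The test was limma over all genes with a run term and a Benjamini-Hochberg adjusted p under 0.05, and by it 40.3% of all genes were called, 15.7% higher and 24.6% lower. A called difference of at least 1 log2 unit was found for 6 of the 9, against 13.9% of all genes, with 1 higher (6.62% of all genes) and 5 lower (7.28%). The median difference of the 9 genes was −1.01, against −0.05 over all genes. With the group as the only term, which leaves the offset between the runs in the spread, 4 of the 9 were called (Gpam, Chka, Lpin2 and Dgat2).

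Wntlow and Wntnegative cells were compared to place cells of intermediate signal. In Wntlow cells 7 of the 9 genes differed, Chpt1 higher by 0.49 and 6 lower, with differences from −0.47 (Cept1) to −1.77 (Lpin2), where 25.5% of all genes were called, 12.3% higher and 13.2% lower. A called difference of at least 1 log2 unit was found for 3 of the 9, against 7.65% of all genes, with none higher (4.32% of all genes) and 3 lower (3.32%). The median of the 9 was −0.88, against −0.03 over all genes. With the group as the only term 1 of the 9 was called (Lpin1). In Wnthigh against Wntlow cells 5 of the 9 differed, Dgat2 and Lpin1 higher and Gpam, Chka and Cept1 lower, where 27.9% of all genes were called, 11.4% higher and 16.4% lower. At least 1 log2 unit was reached by 3 of the 9, against 9.1% of all genes, with 1 higher (4.27% of all genes) and 2 lower (4.83%). The median of the 9 was 0.09, against −0.01 over all genes, and with the group as the only term 2 were called (Gpam and Dgat2). The 3 comparisons share arrays with each other, so they are not independent.

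**Figure D1:**
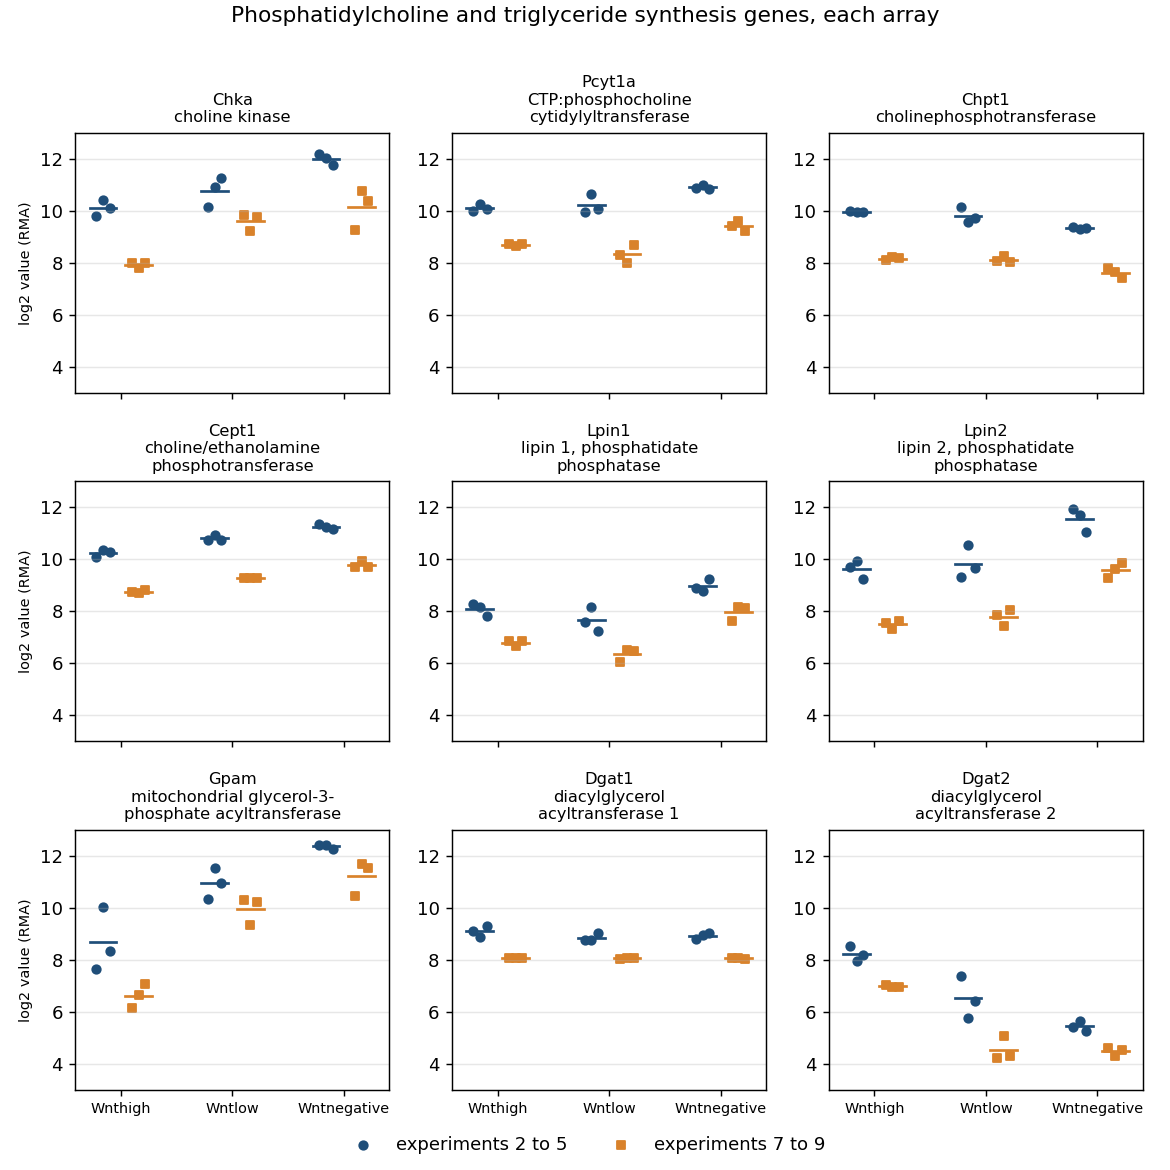
Log2 values of the 9 genes on each of the 18 arrays, with 1 panel per gene, the groups Wnthigh, Wntlow and Wntnegative from left to right, circles for experiments 2 to 5, squares for experiments 7 to 9 and a line at the mean of each 3 arrays. Gpam is lowest in Wnthigh arrays in both runs, Dgat2 is highest there, and the Dgat1 values of the later run lie on 1 line.

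Gpam (chr19:55067635-55127319, GRCm38.p6 as all gene positions here) had the largest difference of the 9 genes. In experiments 2, 4 and 5 it had log2 values of 7.65, 10.03 and 8.36 in Wnthigh arrays, against 10.36, 11.54 and 10.95 in Wntlow and 12.41, 12.41 and 12.28 in Wntnegative arrays of experiments 3, 4 and 5. In experiments 7, 8 and 9 it had 6.13, 6.66 and 7.08 in Wnthigh, 10.29, 9.34 and 10.21 in Wntlow and 10.45, 11.70 and 11.54 in Wntnegative arrays. The groups did not overlap in either run, and their order was Wnthigh, Wntlow, Wntnegative from low to high in both. The difference between Wnthigh and Wntnegative cells was −4.14 (SE 0.38, limma adjusted p = 1.88e-07), with −3.69 in experiments 2 to 5 and −4.60 in experiments 7 to 9. Between Wnthigh and Wntlow cells it was −2.80 (SE 0.38, limma adjusted p = 3.04e-05). Between Wntlow and Wntnegative cells it was −1.35 (SE 0.38, limma adjusted p = 0.0142). That last call was lost, in limma with the run term, without experiments 3, 5 or 8 in turn and without the Wntlow arrays of experiments 3 and 4, at adjusted p up to 0.182 over these and the fits of each run alone. Between Wnthigh and Wntlow cells the call just missed the threshold in experiments 2 to 5 alone, with limma adjusted p = 0.0507 and a difference of −2.27.

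The Wnthigh arrays varied more in Gpam than those of any other group in the earlier run, with an SD of 1.22 (n = 3), against 0.59 in Wntlow and 0.07 in Wntnegative arrays. The highest Wnthigh value, 10.03, was that of experiment 4. On the same arrays of experiments 2, 4 and 5, Abca3, a lipid transporter of alveolar type II cells, had 12.26, 14.86 and 13.07, and Lamp3, a protein of the organelles that store surfactant, had 9.75, 15.10 and 12.20. Experiment 4 was thus the highest of these 3 Wnthigh arrays for all 3 genes. It was also the highest for the goblet cell marker Muc5b, at 6.83, 12.79 and 8.46. For the ciliated cell marker Cdhr3 it was the lowest, at 16.73, 16.39 and 16.86.

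The lipins follow in the pathway. Lpin2 (chr17:71183532-71249818) had 9.69, 9.93 and 9.23 in Wnthigh arrays of experiments 2, 4 and 5, against 9.31, 10.55 and 9.65 in Wntlow and 11.93, 11.70 and 11.05 in Wntnegative arrays of experiments 3, 4 and 5. Experiments 7, 8 and 9 gave 7.56, 7.33 and 7.62 in Wnthigh, 7.87, 7.44 and 8.07 in Wntlow and 9.29, 9.63 and 9.87 in Wntnegative arrays. Wntnegative arrays lay above both other groups in both runs, and the Wnthigh and Wntlow arrays overlapped in both. The difference from Wntnegative cells was −2.02 in Wnthigh cells (SE 0.20, limma adjusted p = 6.08e-07) and −1.77 in Wntlow cells (SE 0.20, limma adjusted p = 1.68e-05). Between Wnthigh and Wntlow cells it was −0.25, with a 95% interval of −0.69 to 0.18 and limma adjusted p = 0.451.

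Lpin1 (chr12:16535669-16653903) had 8.29, 8.17 and 7.81 in Wnthigh arrays of experiments 2, 4 and 5, against 7.59, 8.17 and 7.26 in Wntlow and 8.90, 8.77 and 9.23 in Wntnegative arrays of experiments 3, 4 and 5. The later run (experiments 7, 8 and 9) gave 6.86, 6.67 and 6.86 in Wnthigh, 6.06, 6.50 and 6.49 in Wntlow and 7.62, 8.17 and 8.12 in Wntnegative arrays. Wntnegative arrays were again the highest in both runs, and the mean of the Wntlow arrays was the lowest in both. Lpin1 was lower by −1.03 in Wnthigh cells (SE 0.15, limma adjusted p = 4.07e-05) and by −1.46 in Wntlow cells (SE 0.15, limma adjusted p = 7.54e-06), each against Wntnegative cells. The difference of 0.43 between Wnthigh and Wntlow cells passed narrowly (SE 0.15, limma adjusted p = 0.0492). It was lost in 13 of 21 other settings, among them the omission of any experiment but 4, and with the experiment as a block it was 0.36 at limma adjusted p = 0.145. The gap of Lpin2 over Lpin1 on an array changed by −0.99 in Wnthigh against Wntnegative cells, with no overlap of the groups in either run. For that gap the Wntlow and Wntnegative arrays overlapped in both runs.

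In the choline branch, Chka (chr19:3851585-3894369) showed the same order of group means as Gpam in both runs. It had 9.82, 10.43 and 10.12 in Wnthigh arrays of experiments 2, 4 and 5, against 10.15, 10.92 and 11.27 in Wntlow and 12.18, 12.05 and 11.75 in Wntnegative arrays of experiments 3, 4 and 5. In the later run, experiments 7, 8 and 9 gave 7.99, 7.81 and 7.98 in Wnthigh, 9.83, 9.22 and 9.76 in Wntlow and 9.26, 10.77 and 10.40 in Wntnegative arrays. Wnthigh and Wntnegative arrays did not overlap in either run, Wntlow arrays overlapped Wnthigh arrays in the earlier run, and they overlapped Wntnegative arrays in the later run. The difference was −2.05 in Wnthigh against Wntnegative cells (SE 0.26, limma adjusted p = 8.30e-06) and −1.17 against Wntlow cells (SE 0.26, limma adjusted p = 0.00263). The last of these was not called in experiments 2 to 5 alone (−0.66, limma adjusted p = 0.215). Between Wntlow and Wntnegative cells it was −0.88 (SE 0.26, limma adjusted p = 0.0213), and this call was lost without experiments 3, 4 or 8 and without the Wntlow arrays of experiments 3 and 4, at limma adjusted p up to 0.430 over these and experiments 7 to 9 alone, where it was −0.54.

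Pcyt1a (chr16:32430921-32475065) had 9.99, 10.28 and 10.07 in Wnthigh arrays of experiments 2, 4 and 5, against 9.97, 10.65 and 10.06 in Wntlow and 10.88, 10.99 and 10.86 in Wntnegative arrays of experiments 3, 4 and 5. Experiments 7, 8 and 9 gave 8.74, 8.63 and 8.74 in Wnthigh, 8.30, 8.00 and 8.70 in Wntlow and 9.41, 9.60 and 9.22 in Wntnegative arrays. Wntnegative arrays lay above the others in both runs, and the Wnthigh and Wntlow arrays overlapped in both. Pcyt1a was lower by −0.75 in Wnthigh cells (SE 0.14, limma adjusted p = 2.70e-04) and by −0.88 in Wntlow cells (SE 0.14, limma adjusted p = 1.89e-04), each against Wntnegative cells. The Wntlow call was not made in experiments 2 to 5 alone, where the difference was −0.68 (limma adjusted p = 0.0584). Between Wnthigh and Wntlow cells the difference was 0.13, with a 95% interval of −0.16 to 0.42 (limma adjusted p = 0.596), and its sign differed between the runs, at −0.11 and 0.37.

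**Figure D2:**
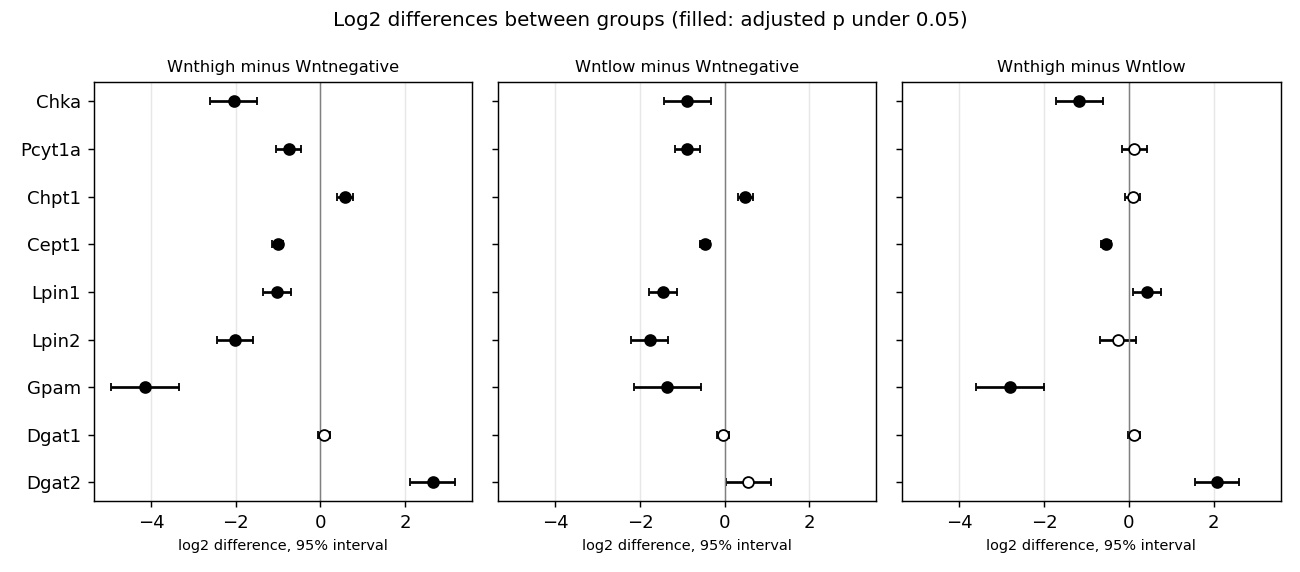
Log2 differences of the 9 genes with 95% intervals from the fit with a run term, in the panels Wnthigh minus Wntnegative, Wntlow minus Wntnegative and Wnthigh minus Wntlow from left to right, with points filled where the adjusted p was under 0.05. Gpam lies farthest to the left in the left panel at −4.14, and Dgat2 farthest to the right at 2.65.

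For the step that joins CDP-choline to diacylglycerol, Cept1 was lower and Chpt1 higher in both Wnthigh and Wntlow cells against Wntnegative cells. Cept1 (chr3:106502260-106547802) had 10.08, 10.37 and 10.30 in Wnthigh arrays of experiments 2, 4 and 5, against 10.76, 10.95 and 10.75 in Wntlow and 11.35, 11.25 and 11.16 in Wntnegative arrays of experiments 3, 4 and 5. The later run (experiments 7, 8 and 9) gave 8.75, 8.69 and 8.81 in Wnthigh, 9.27 on all 3 Wntlow and 9.69, 9.93 and 9.71 in Wntnegative arrays. The 3 groups did not overlap in either run and kept 1 order, Wnthigh lowest and Wntnegative highest. The difference from Wntnegative cells was −1.01 in Wnthigh cells (SE 0.06, limma adjusted p = 5.16e-09) and −0.47 in Wntlow cells (SE 0.06, limma adjusted p = 2.82e-05), and between Wnthigh and Wntlow cells it was −0.54 (SE 0.06, limma adjusted p = 5.56e-06). The Wntlow arrays of the later run shared the value 9.2696 to all 4 decimals kept, so the spread of that group is understated.

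Chpt1 (chr10:88469513-88503970) had 9.99, 9.94 and 9.96 in Wnthigh arrays of experiments 2, 4 and 5, against 10.16, 9.57 and 9.74 in Wntlow and 9.39, 9.31 and 9.33 in Wntnegative arrays of experiments 3, 4 and 5. In the later run, experiments 7, 8 and 9 gave 8.10, 8.23 and 8.17 in Wnthigh, 8.06, 8.29 and 8.04 in Wntlow and 7.81, 7.64 and 7.43 in Wntnegative arrays. Wntnegative arrays lay below both other groups in both runs, and Wnthigh and Wntlow arrays overlapped. Chpt1 was higher by 0.58 in Wnthigh cells (SE 0.08, limma adjusted p = 3.17e-05) and by 0.49 in Wntlow cells (SE 0.08, limma adjusted p = 4.36e-04), each against Wntnegative cells. In experiments 2 to 5 alone the Wntlow difference was not called (0.48, limma adjusted p = 0.0760). Between Wnthigh and Wntlow cells the difference was 0.09, with a 95% interval of −0.09 to 0.27 (limma adjusted p = 0.539). The gap of Cept1 over Chpt1 on an array changed by −1.59 in Wnthigh and by −0.96 in Wntlow cells against Wntnegative cells, and in both the groups did not overlap in either run.

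The enzymes of the last step to triglyceride differed from each other. Dgat2 (chr7:99153663-99182713) had 8.55, 7.96 and 8.19 in Wnthigh arrays of experiments 2, 4 and 5, against 7.36, 5.77 and 6.41 in Wntlow and 5.40, 5.65 and 5.26 in Wntnegative arrays of experiments 3, 4 and 5. Experiments 7, 8 and 9 gave 7.02, 6.94 and 6.97 in Wnthigh, 4.21, 5.07 and 4.31 in Wntlow and 4.60, 4.30 and 4.54 in Wntnegative arrays. Wnthigh arrays lay above both other groups in both runs. The means of the Wntlow and Wntnegative arrays of the later run, 4.53 and 4.48, were below the 95th percentile of the background probe sets (4.92), so differences from them are lower limits in size. The difference was at least 2.65 in Wnthigh against Wntnegative cells (SE 0.25, limma adjusted p = 2.65e-07) and at least 2.08 against Wntlow cells (SE 0.25, limma adjusted p = 1.19e-05), and both calls held in all 21 other settings. Between Wntlow and Wntnegative cells it was 0.56 and did not pass (95% interval 0.04 to 1.09, limma adjusted p = 0.116), with 1.08 in the earlier run, where the arrays did not overlap, and 0.05 in the later run, where both group means were below background.

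Dgat1 (chr15:76502012-76512021) passed in no comparison. In experiments 2, 4 and 5 it had 9.10, 8.89 and 9.29 in Wnthigh arrays, against 8.77, 8.75 and 9.05 in Wntlow and 8.80, 8.94 and 9.03 in Wntnegative arrays of experiments 3, 4 and 5, and the groups overlapped. In the later run 7 of 9 arrays had the value 8.0626 and the whole range was 0.0245, so no difference in that run could exceed this range. Of all genes 6.62% had 1 value on at least 7 of the 9 arrays of that run and 4.41% in the earlier run. The difference was 0.09 in Wnthigh against Wntnegative cells (95% interval −0.06 to 0.24, limma adjusted p = 0.340), −0.04 in Wntlow against Wntnegative cells (95% interval −0.18 to 0.11, limma adjusted p = 0.763) and 0.12 in Wnthigh against Wntlow cells (95% interval −0.02 to 0.27, limma adjusted p = 0.230). After quantile normalization over all arrays the first of these was 0.26 with limma adjusted p = 0.00568. In experiments 2 to 5 it was 0.17, and Wntlow against Wntnegative cells differed by −0.07. The shared value of the later run draws the differences over both runs towards no difference and narrows their intervals. The gap of Dgat2 over Dgat1 on an array changed by 2.56 in Wnthigh against Wntnegative cells, with no overlap of the groups in either run.

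Across runs, the groups did not overlap in either run for 8 of the 9 genes between Wnthigh and Wntnegative cells, where this holds for 30.7% of all genes. The same held for 6 of the 9 between Wntlow and Wntnegative cells (15.6% of all genes) and for 3 of the 9, Cept1, Gpam and Dgat2, between Wnthigh and Wntlow cells (18.4% of all genes). A test in limma of whether a difference itself changed between the runs called 0 of 30142 genes in each comparison, with 1940, 1757 and 2183 genes at an unadjusted p under 0.05 for Wnthigh against Wntnegative, Wntlow against Wntnegative and Wnthigh against Wntlow cells. Among the 9 genes the unadjusted p was under 0.05 only for Dgat2 between Wntlow and Wntnegative cells (limma unadjusted p = 0.0382, adjusted p = 0.848).

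**Figure D3:**
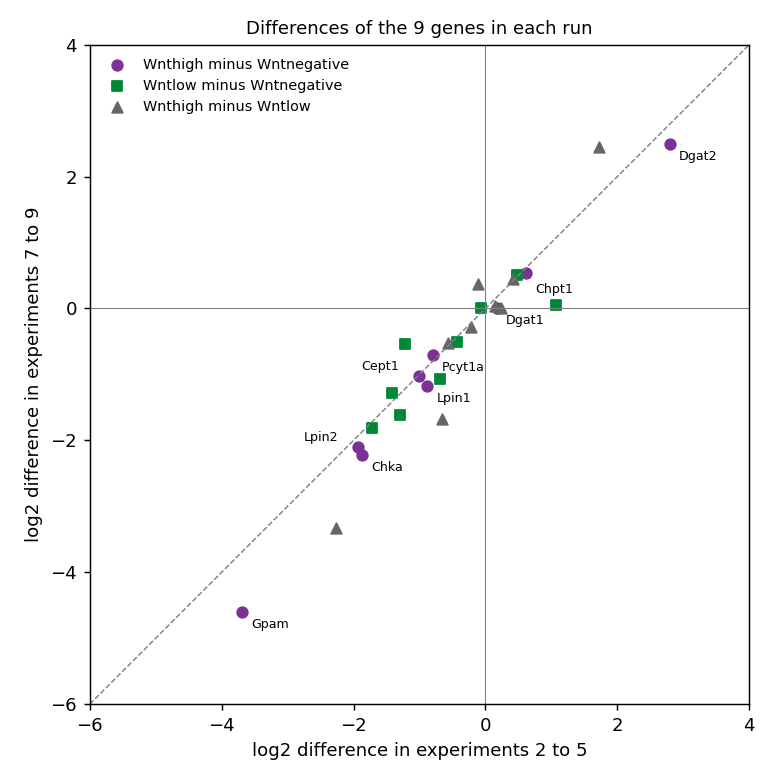
Log2 differences of the 9 genes in experiments 2 to 5 on the horizontal axis and in experiments 7 to 9 on the vertical axis, with circles for Wnthigh minus Wntnegative (named), squares for Wntlow minus Wntnegative, triangles for Wnthigh minus Wntlow and a dashed line where both runs are equal. Gpam is at −3.69 and −4.60 and Dgat2 at 2.80 and 2.50, and the square at 1.08 and 0.05 is Dgat2 in Wntlow minus Wntnegative.

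The 9 genes also varied with each other from array to array. With each gene centred on its run mean, Gpam and Cept1 correlated at 0.952 and Gpam and Chka at 0.945 over 18 arrays, and Gpam and Dgat2 at −0.949. Pcyt1a and Lpin2 correlated at 0.889, Pcyt1a and Lpin1 at 0.868, and Chpt1 and Lpin2 at −0.940, while the values of Dgat1 with the other 8 lay between −0.388 and 0.340. The 18 arrays fall into 3 groups that differ in these genes, so these values are descriptions of the group differences as much as of the spread between arrays. In this description 1 set of genes (Gpam, Chka and Cept1) was called lower in Wnthigh than in Wntlow cells. For another (Pcyt1a, Lpin2 and, in the opposite direction, Chpt1) no difference between Wnthigh and Wntlow cells was called. Means of the first set increased in the order Wnthigh, Wntlow, Wntnegative in both runs. Those of Lpin2 did so too, and those of Chpt1 had the reverse order. Lpin2 also correlated with Cept1 at 0.863 and with Chka at 0.817, so the sets are not sharply apart. Lpin1 was nearer to the second set, at 0.868 with Pcyt1a and 0.855 with Lpin2. Its means were lowest in Wntlow arrays in both runs. Its call between Wnthigh and Wntlow cells was lost in 13 of 21 other settings.

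Among 3567 named genes whose group means spanned at least 1 log2 unit, those most like each gene were found by the same correlation over 18 run-centred arrays. For Gpam they were Arhgap29 (0.993), Mbnl1 (0.990) and Atp7b (0.990), and for Dgat2 they were Mst1 (0.987), Aebp1 (0.986) and Khdrbs3 (0.986). For Cept1 they were Usp3 (0.986), Mbnl3 (0.986) and Rassf2 (0.985). The closest were Nfat5 to Chka (0.986), Hcar2 to Chpt1 (0.972), Utrn to Lpin2 (0.977), Fam184a to Lpin1 (0.973) and Stx17 to Pcyt1a (0.960). For Dgat1 the closest, Dmwd, reached 0.761. Group means were not removed, so these values too describe the group differences as much as the spread between arrays.

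Markers of several epithelial cell types moved with the groups. Of 8 alveolar type II markers, 7 were lower in Wnthigh than in Wntnegative cells (the exception, Sftpc, was near the top of the scale in all groups), and the median marker of an array lay between 12.1 and 16.3 in Wnthigh, 15.9 and 17.6 in Wntlow and 17.7 and 18.8 in Wntnegative arrays. Of 5 ciliated cell markers all were higher in Wnthigh than in Wntnegative cells, with the median marker at 15.3 to 16.2 in Wnthigh, 10.4 to 15.2 in Wntlow and 4.33 to 7.41 in Wntnegative arrays. Of 6 goblet cell markers all were lower in Wnthigh than in Wntlow cells, with 6.24 to 9.64 in Wnthigh, 10.5 to 13.3 in Wntlow and 4.12 to 5.37 in Wntnegative arrays. Of 4 measured club cell markers all were higher than in Wntnegative cells in both Wnthigh (median difference 3.63) and Wntlow cells (4.33), with the median marker at 15.2 to 17.3 in Wnthigh, 17.3 to 18.5 in Wntlow and 12.7 to 15.2 in Wntnegative arrays. Of 6 alveolar type I markers 5 were lower and 1 higher in Wnthigh than in Wntnegative cells (median difference −2.55), with 4.58 to 7.82 in Wnthigh, 6.24 to 8.93 in Wntlow and 7.20 to 9.75 in Wntnegative arrays. Over the 18 run-centred arrays Gpam correlated with Abca3 at 0.973 and with Cdhr3, a cadherin of ciliated cells, at −0.893. Cept1 stood at 0.950 with Abca3, and Dgat2 at −0.884 with Abca3 and 0.852 with Cdhr3. Lpin1 had its lowest value, −0.839, with Muc5b, a mucin of goblet cells, and Pcyt1a stood at −0.748 with Muc5b. The part of these cell types in the differences of the 9 genes was not tested, and in sorted bulk cells fewer cells of a type and less RNA per cell cannot be told apart.

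The rest of the pathway was described with 6 lists of genes, and in Wnthigh against Wntnegative cells their counts stand beside 15.7% of all genes called higher and 24.6% lower. In the choline and ethanolamine branch, 8 of 15 measured genes were higher and 5 lower in Wnthigh than in Wntnegative cells, with a median of 0.42, against −0.05 over all genes. The choline transporter-like gene Slc44a2 was at 9.25 in Wnthigh and 12.69 in Wntnegative cells on average, a difference of −3.44 (SE 0.35, limma adjusted p = 5.95e-07), while its relative Slc44a4 was at 12.46 and 9.18, a difference of 3.28 (SE 0.24, limma adjusted p = 2.13e-08). Pcyt1b, which encodes the other CTP:phosphocholine cytidyl-transferase and was at background in Wntnegative cells, was higher by at least 3.97 (SE 0.27, limma adjusted p = 1.17e-08), and so differed in the direction opposite to Pcyt1a. Pemt, whose enzyme makes phosphatidylcholine by methylation in place of the choline branch, was at 8.26 in Wnthigh and 6.07 in Wntnegative cells (difference 2.18, SE 0.17, limma adjusted p = 3.93e-08).

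Among genes of glycerol phosphate acylation and phosphatidate phosphatases, 8 of 17 were higher and 3 lower in Wnthigh than in Wntnegative cells, with a median of 0.13, against 15.7% and 24.6% of all genes. Plpp3, a phosphatase of lipid phosphates at the cell surface, was at 10.50 in Wnthigh, 15.30 in Wntlow and 5.90 in Wntnegative cells. Its difference from Wntnegative cells was 4.60 in Wnthigh cells (SE 0.58, limma adjusted p = 6.79e-06) and 9.40 in Wntlow cells (SE 0.58, limma adjusted p = 5.32e-08). In Wntlow cells of the later run Plpp3 was near the top of the scale. It was thus highest in the middle group, as none of the 9 genes was in either run. Lclat1, which encodes an acyltransferase that also remodels cardiolipin, was higher by 3.00 in Wnthigh than in Wntnegative cells, and Gpd1, which encodes an enzyme that makes glycerol phosphate, by 1.77. Agpat2, whose enzyme makes phosphatidate, was lower by −1.74 and followed Gpam and the lipins in sign.

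In phospholipid remodelling, 7 of 13 genes were higher and 4 lower in Wnthigh than in Wntnegative cells, with a median of 0.41, against 15.7% and 24.6% of all genes. Lpcat1, the acyltransferase that makes the saturated phosphatidylcholine of surfactant, averaged 9.55 in Wnthigh, 12.18 in Wntlow and 15.36 in Wntnegative cells, which is near the top of the scale in the earlier run. The difference between Wnthigh and Wntnegative cells was −5.81 (SE 0.86, limma adjusted p = 3.47e-05), with −4.39 and −7.23 in the runs. Pla2g4a, a phospholipase that releases arachidonic acid, was higher by 4.53 (SE 0.27), Lpcat4, another lysophospholipid acyltransferase, by 3.85 (SE 0.24) and Lpgat1 by 2.13 (SE 0.18) in Wnthigh than in Wntnegative cells, with limma adjusted p at most 7.65e-08 for the 3.

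**Figure D4:**
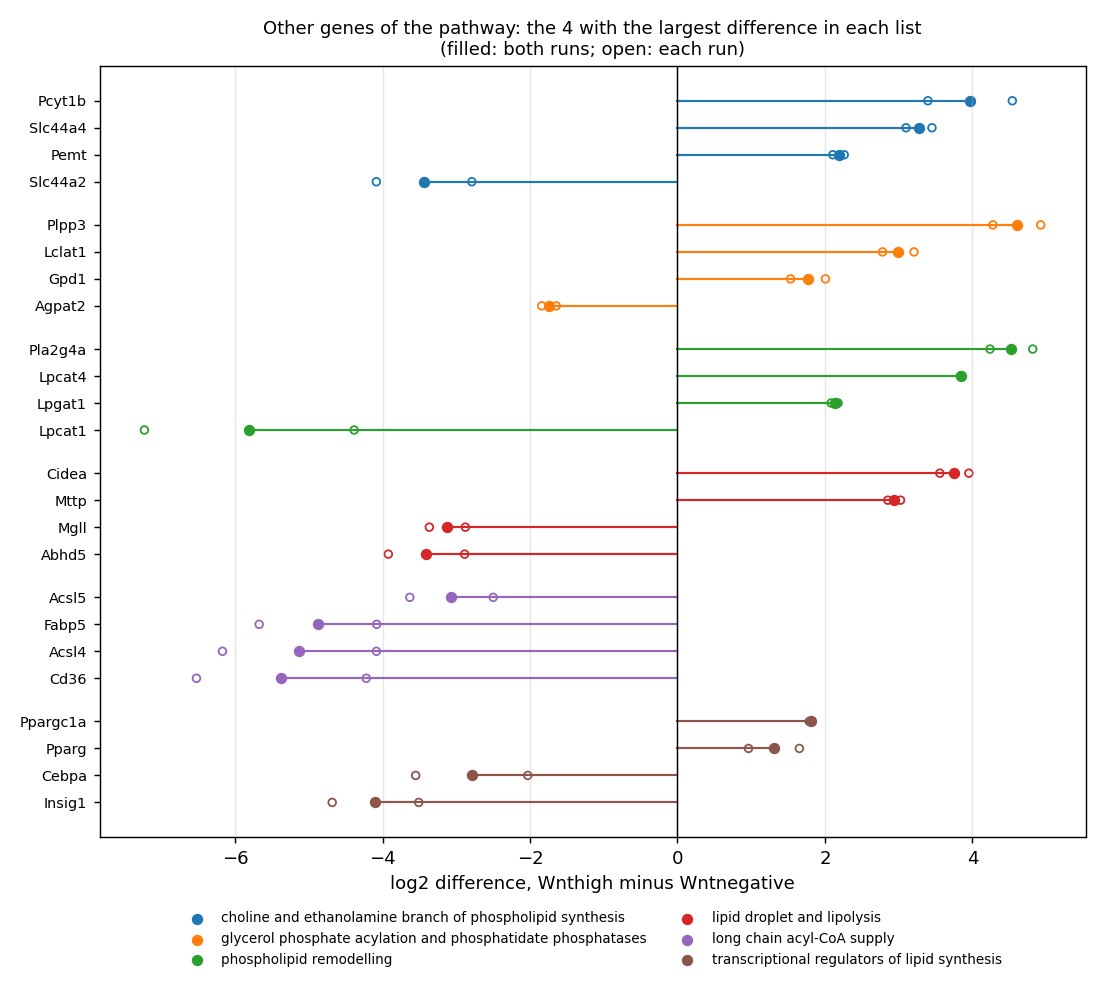
Log2 differences, Wnthigh minus Wntnegative, of the 4 genes with the largest size past the threshold in each of 6 pathway lists, with filled points for both runs together and open points for each run. All 24 have the same sign in both runs, from −5.81 (Lpcat1) to 4.60 (Plpp3). They were picked by the fit of both runs together, so this agreement is largely set by the choice.

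Genes of lipid droplets and lipolysis were mostly lower, 12 of 19, with 4 higher and a median of −0.38, where 24.6% of all genes were called lower and 15.7% higher. Abhd5, the activator of triglyceride lipase, averaged 8.08 in Wnthigh and 11.49 in Wntnegative cells (difference −3.40, SE 0.26, limma adjusted p = 2.58e-08). Mgll, which encodes a lipase of monoglycerides, was lower by at least 3.12 in size, being at background in Wnthigh cells of the later run (−3.12, SE 0.41, limma adjusted p = 9.56e-06). Cidea, a protein that enlarges lipid droplets and was at background in Wntnegative cells, was higher by at least 3.76 (SE 0.27, limma adjusted p = 1.86e-08). Mttp, which loads triglyceride onto lipoproteins in liver and intestine, was higher by at least 2.94 (SE 0.20, limma adjusted p = 1.23e-08). Cidea and Mttp thus moved in the direction of Dgat2 and Abhd5 and Mgll in the direction of Gpam.

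Genes that supply long chain acyl-CoA were mostly lower too, 7 of 11, with 3 higher and a median of −0.53, against the same shares of all genes. Cd36, a fatty acid receptor at the cell surface, averaged 11.62 in Wnthigh, 16.10 in Wntlow and 17.00 in Wntnegative cells. The difference between Wnthigh and Wntnegative cells was −5.37 (SE 0.62, limma adjusted p = 2.33e-06). Acsl4, an acyl-CoA synthetase that prefers arachidonic acid, averaged 10.27 against 15.40 (−5.13, SE 0.51, limma adjusted p = 5.22e-07), and Fabp5, a fatty acid binding protein, 8.37 against 13.24 (−4.88, SE 0.78, limma adjusted p = 8.18e-05). Acsl5 was lower by −3.07. Cd36, Acsl4 and Acsl5 were near the top of the scale in Wntnegative cells in at least 1 run.

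Of 13 transcriptional regulators of lipid synthesis, 4 were higher and 6 lower in Wnthigh than in Wntnegative cells, with a median of −0.30, against 15.7% and 24.6% of all genes. Insig1, a target and brake of the sterol regulatory element binding proteins, averaged 7.92 in Wnthigh, 10.28 in Wntlow and 12.02 in Wntnegative cells, with a difference of −4.10 between Wnthigh and Wntnegative cells (SE 0.40, limma adjusted p = 4.73e-07). Cebpa, a factor of the type II cell and of fat cells, was lower in Wnthigh cells (−2.79, SE 0.27, limma adjusted p = 3.82e-07). It was near the top of the scale in Wntnegative cells. Ppargc1a, a coactivator of mitochondrial genes, was higher by 1.81 (SE 0.17), and Pparg, the factor of fat cell formation, by at least 1.31 (SE 0.21), and these 2 were not called with the group as the only term (limma adjusted p = 0.0876 and 0.111).

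In Wntlow against Wntnegative cells, where 12.3% of all genes were called higher and 13.2% lower, the lists were counted in the same way. Of the choline and ethanolamine branch 3 were higher and 3 lower of 15, of the acylation and phosphatase list 6 and 2 of 17, of remodelling 7 and 3 of 13, of lipid droplets 4 and 10 of 19, of acyl-CoA supply 1 and 4 of 11, and of regulators 5 and 7 of 13. Etnk1 and Pcyt2, which encode the kinase and the cytidyl-transferase of the ethanolamine branch, were lower by −1.51 (SE 0.24, limma adjusted p = 1.97e-04) and −1.55 (SE 0.22, limma adjusted p = 9.81e-05) in Wntlow cells. Mboat1, a lysophospholipid acyltransferase, was higher by 3.80 (SE 0.35, limma adjusted p = 2.10e-06), Plin2, the coat protein of lipid droplets, lower by −1.41 (SE 0.23, limma adjusted p = 3.14e-04), and Srebf2, the factor of cholesterol synthesis genes, lower by −1.47 (SE 0.19, limma adjusted p = 5.28e-05). In experiments 2 to 5 alone Etnk1, Pcyt2, Plin2 and Srebf2 were not called, at limma adjusted p = 0.105, 0.0931, 0.125 and 0.0755. Wnthigh against Wntnegative cells also differed, by −1.25 (Etnk1), −1.75 (Pcyt2), 1.76 (Mboat1), −2.59 (Plin2) and −0.75 (Srebf2). Mboat1 was nevertheless highest in Wntlow cells, at 12.00 against 9.97 in Wnthigh cells (Wnthigh minus Wntlow −2.03, limma adjusted p = 2.75e-04). Srebf2 was lowest there, at 10.74 against 11.46 (0.72, limma adjusted p = 0.00995). Neither of these calls was made in experiments 2 to 5 alone. That of Srebf2 was also lost without experiment 7 and with the group as the only term.

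Between Wnthigh and Wntlow cells 8 genes of the choline and ethanolamine branch were higher and 1 lower of 15, where 11.4% of all genes were called higher and 16.4% lower, with Slc44a3, another choline transporter-like gene, higher by 0.64 (SE 0.09, limma adjusted p = 2.83e-05). In the other lists 5 and 2 of 17, 4 and 4 of 13, 4 and 7 of 19, 1 and 5 of 11 and 4 and 3 of 13 were higher and lower, in the order given before. Plpp2, a phosphatase of lipid phosphates, was lower by −1.68 (SE 0.16, limma adjusted p = 2.59e-06), Pnpla2, the triglyceride lipase that Abhd5 activates, lower by −1.60 (SE 0.25, limma adjusted p = 1.17e-04), and Slc27a1, a fatty acid transport protein with acyl-CoA synthetase activity, higher by 1.51 (SE 0.13, limma adjusted p = 2.14e-06). In experiments 2 to 5 alone Slc44a3 and Pnpla2 were not called, at limma adjusted p = 0.0594 and 0.122. Against Wntnegative cells, Wnthigh cells differed by 0.84 (Slc44a3), −1.33 (Plpp2), −2.58 (Pnpla2) and 1.77 (Slc27a1).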

How the data were processed

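Values are log2 intensities of 72688 probe sets on 18 Affymetrix arrays, deposited by the authors in the series table and made with RMA per the submitters' processing notes; the version of the software, the library of the chip and its build were not given in the sources used here. Deposited log2 values ran from 1.79 to 19.93, above the limit of 16 of a 16-bit scanner, for a reason not given in the sources used here, so a log2 difference is one of deposited values and is not read as a ratio of RNA. RNA integrity numbers were all above 8, per the labels' protocols. Values shared by several arrays of a run were kept as deposited.

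Gene symbols came from the platform annotation, and 827 were updated through gene identifiers. Leaving out controls, 65956 probe sets remained, of which 30604 had 1 symbol, 2146 several and 33206 none. For 355 genes with more than 1 such probe set, that of the highest mean stood for the gene, which left 30142 genes. Background is the 95th percentile of 23 background probe sets (5.17 in experiments 2 to 5 and 4.92 in experiments 7 to 9), and the top of the scale is the 99th percentile of all probe sets (15.6 and 15.4). Values above that top ran up to 19.93, so it marks high values and was not read as a limit of measurement. No filter on dim genes was applied.

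Groups were compared with limma 3.58.1 in R 4.3.3 (lmFit and eBayes, two-sided), in 1 fit of all arrays with group and run terms, with Benjamini-Hochberg adjustment over all genes of a comparison and a threshold of 0.05. The fit was tested on simulated data. Replicates are pools from separate experiments. Correlations, motif searches and figures used Python 3.11.15. The members, gene lists, markers and tests were chosen with earlier results of these data known. The named genes were the 9 members, up to 4 genes per list and comparison with the largest size past the threshold, 7 markers of the sorted populations, and the 3 genes most like each member. Kdr was named after its values were seen. Listed genes without a probe set of their own were not analysed here.

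Experiment numbers in the labels are shared across groups and so pair the arrays. Deviations of same-numbered arrays from group and run means correlated at 0.00339 to 0.516 in 16 pairs, 12 of them above 0.1. The alternatives were the experiment as a block, fixed or random, no run term, either run by itself, centring on array medians, quantile normalization of the 18 arrays together, dim genes filtered out, other rules for probe sets, fits of 2 groups, trended and robust variance, weights per array, the Wntlow arrays of experiments 3 and 4 left out, and each experiment left out.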

Additional observations from a re-analysis of the deposited data

Results flagged for a closer look

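The Cept1 value of the Wntlow array of experiment 4, a log2 value of 10.95, stood apart from the other 5 arrays of its group. Centred on run means it was 0.179, against −0.027 to 0.003 for the others, and its gap to the nearest was 0.85 of the whole range, above Dixon's 95% critical value for 6 arrays. Of 27 sets of 6 arrays (9 genes in 3 groups) it was the only 1 found, and chance marks about 1 in 20. The 3 later Wntlow arrays share 1 value.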

How the results depend on the processing

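Of 567 values of the 9 genes under 21 other settings, 525 stayed on their side of the threshold with the same sign where called, 40 lost their call, 2 gained one and none of the called values changed sign; 27 of the losses came with the run accounted for. The gains were Dgat1 between Wnthigh and Wntnegative cells after quantile normalization over all arrays (0.26, limma adjusted p = 0.00568) and Dgat2 between Wntlow and Wntnegative cells with array weights (0.61, limma adjusted p = 0.0444). With the group as the only term, which leaves the offset between runs in the spread, 4, 1 and 2 of the 9 genes were called for Wnthigh against Wntnegative, Wntlow against Wntnegative and Wnthigh against Wntlow cells, and over all genes 2824, 1061 and 1351, of which 2732, 1035 and 1298 by at least 1 log2 unit. In experiments 2 to 5 alone, with fewer arrays, 4 and 2 of the 9 genes were called for Wntlow against Wntnegative and Wnthigh against Wntlow cells, 2532 and 3291 genes in all, and 1267 and 1339 by at least 1 log2 unit. In experiments 7 to 9 alone 7906 genes were called for Wnthigh against Wntnegative and 4471 for Wntlow against Wntnegative cells. With the experiment as a fixed replicate block 8, 7 and 4 of the 9 genes were called in the 3 comparisons, and 11573, 8002 and 8139 over all genes, the loss among the 9 being Lpin1 between Wnthigh and Wntlow cells (0.36, limma adjusted p = 0.145), and the block changed no other call of the 9. As a random block its correlation was 0.0733. Of 72 calls of named pathway genes, 35 held in all settings and 37 were lost in some, 27 of them with the run accounted for, and none changed sign. The limits are 3 arrays of a group in a run, background for Dgat2, and shared values for Dgat1 and Cept1.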
